A study of Homo sapiens with 36 samples.

Results

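The comparison described here set CoCl2 directly against an oxyquinoline derivative (OD) in differentiated Caco-2 cells, at the level of mRNA. Its members were the 3 mRNA libraries labelled CoCl2 and the 3 labelled with the oxyquinoline, chosen by their labels alone, so 6 of the 36 libraries of the series. The whole series measured mRNA and miRNA in 2 human colorectal adenocarcinoma lines, Caco-2 and HT-29, and the 3 control mRNA libraries of Caco-2 are used below as background levels. Caco-2 is a line that forms a polarised, enterocyte-like layer when kept confluent, and all Caco-2 cells here had been cultured for 21 days to differentiate. CoCl2 was given at 300 µM from a stock in water and OD at 5 µM from a stock in DMSO, each for 24 h, so the agents were compared at different doses. OD is known here by its supplier's catalogue number only, and no structure is given for it. By the labels, OD and control medium held 0.5 µl DMSO per ml and none is named for CoCl2, whereas the study's methods state that DMSO was added to CoCl2 medium as well. Any part of the solvent in the differences was not tested.

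Both agents serve as chemical models of hypoxia. In oxygenated cells, prolyl hydroxylases that need iron, oxygen and 2-oxoglutarate mark the alpha subunits of hypoxia-inducible factor (HIF) for destruction, and agents that block these enzymes let HIF accumulate and switch on genes for glycolysis, glucose uptake, vessel growth and the feedback hydroxylases. Cobalt is also a transition metal, and metals in excess are known to engage MTF1, which binds metal response elements, NRF2, which answers electrophiles and oxidants, and HSF1, which answers misfolded protein. Setting the agents against each other asks which genes differ between them when no library of untreated cells enters the contrast.

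The 6 libraries held 13479846 to 20966763 counted reads and the 3 controls 13091650 to 15296543. The labels do not say whether the libraries of a group came from separate cultures, and the study states biological replicates, so p-values measure the spread between these libraries. The root-mean-square difference between a CoCl2 and an OD library was 0.723 to 0.778 on the log2 scale, against 0.402 to 0.437 between CoCl2 libraries and 0.359 to 0.476 between OD libraries. OD replicate 1 stood apart from the other OD libraries, with 22838 genes detected against 24136 and 24887, and counts that change most without it are given both ways; without it, 1977 genes were called (921 higher, 1056 lower). Enterocyte markers were present in every library, with a summed level of 3788 to 4003 CPM (counts scaled to the library total) in CoCl2 and 5154 to 5313 in OD. The summed marker levels use the library total alone. CPM of single genes are scaled by TMM as well, which allows for library composition, with mean factors of 0.89 in CoCl2, 1.00 in OD and 1.12 in control. Of 8 goblet cell markers 5 were high enough to test and none was called (1 of 6 lower without OD replicate 1), and of 8 enteroendocrine markers 1 was testable. The summed fibroblast markers were 30.6 to 32.0 CPM in CoCl2 and 39.4 to 44.6 in OD, with DCN and ACTA2 at 0 or 1 count and COL1A2 at no more than 2 in each Caco-2 library. The stem and progenitor markers summed to 255 to 275 CPM in CoCl2, 444 to 454 in OD and 418 to 455 in control. The summed endothelial markers were 1.91 to 3.02 and 5.90 to 6.59 CPM, and the immune markers 27.9 to 29.0 and 20.3 to 27.7 CPM, with PTPRC at 0 or 1 count. Among all these markers of other cell types, SMOC2 (stem), PDGFRB (fibroblast) and PECAM1 (endothelial) were called, each lower in CoCl2. In bulk libraries such as these, fewer cells of a type and less RNA per cell cannot be told apart.

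Of 16034 genes tested, 1868 were called different (11.7%), with 835 higher in CoCl2 (5.21%) and 1033 lower (6.44%). A gene was called when its adjusted p in edgeR's quasi-likelihood test was under 0.05 and its log2 fold change, CoCl2 minus OD, was over 1 in size, the thresholds the study states. By adjusted p alone, 7957 genes passed (49.6%), with 3917 higher (24.4%) and 4040 lower (25.2%). Where a count of list members below is given without a share, these shares of all genes are its background. The median of all genes was -0.01 on the log2 scale and the median size was 0.37, with a median standard error (SE) of 0.13. A log2 fold change over 2 was found for 155 called genes and one under -2 for 177. Without scaling for library composition the median moved by -0.17 and the split became 602 higher and 1524 lower. The CPM of the CoCl2 libraries did not overlap those of the OD libraries for 52.8% of all genes.

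Against control, 9.13% of genes were called higher and 14.2% lower in CoCl2, and 4.43% and 7.27% in OD, with the same 3 control libraries in both. Of the 835 genes higher in CoCl2, the control mean lay below both agents for 374 (44.8%), between them for 408 (48.9%) and above both for 53 (6.35%). Of the 1033 lower genes, it lay above both agents for 586 (56.7%), between them for 408 (39.5%) and below both for 39 (3.78%). CoCl2 was the agent farther from control for 633 of the higher genes (75.8%) and for 871 of the lower ones (84.3%). These positions are descriptions, since both distances share the control libraries.

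**Figure D1:**
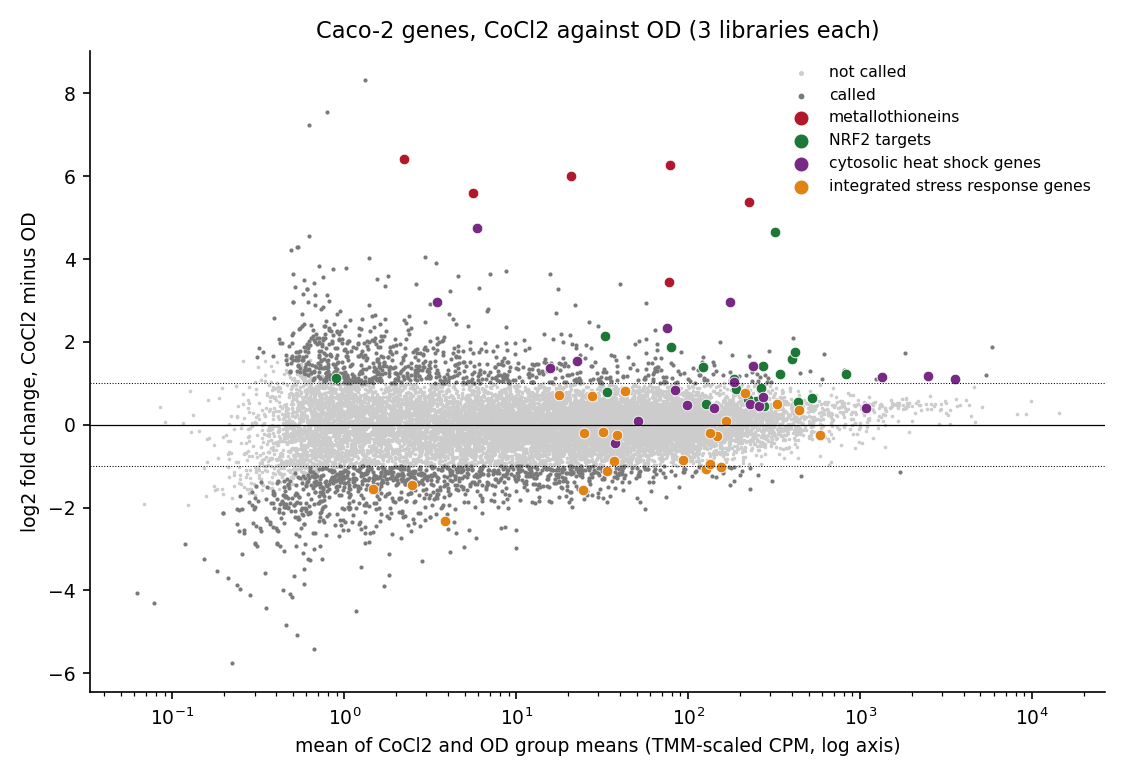
Log2 fold change (CoCl2 minus OD) of each tested Caco-2 gene against the mean of both group means in TMM-scaled CPM on a log axis. Dark grey points are the 1868 called genes, dotted lines mark a log2 fold change of 1 and -1, and coloured points are 4 gene lists; the 6 metallothioneins sit between 3.45 and 6.41.

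Metallothioneins, small cysteine-rich proteins that bind zinc, copper and other metals and are transcribed through MTF1, were far higher in CoCl2. Of 11 family members listed, 6 had enough counts to test and each of these was higher in CoCl2, with a median log2 fold change of 5.80 against -0.01 over all genes. MT1G and MT1H among them had at most 5 counts in any OD or control library. They were tested only because of their CoCl2 counts and could only come out higher, so they add no support to this count or median. MT2A (chr16:56608584-56609497, plus strand) measured 449, 412 and 459 CPM in the CoCl2 libraries, 10.9, 10.0 and 10.8 in the OD libraries and 1.86, 4.56 and 4.98 in the controls. Its log2 fold change was 5.38 ± 0.14 (SE, n = 3 per group, adjusted p = 1.6e-19), a 41.7-fold difference, and OD itself stood 1.5 above control on the log2 scale. MT1X (chr16:56682470-56684196, plus strand) measured 152, 148 and 161 CPM in CoCl2 and 2.62, 1.5 and 1.91 in OD. The OD libraries of MT1X overlapped the controls at 0.815, 2.15 and 2.22 CPM, and the log2 fold change between the agents was 6.26 ± 0.16 (adjusted p = 1.6e-19). MT1E measured 40.2, 39.4 and 42.9 CPM in CoCl2 and 0.471, 0.961 and 0.423 in OD, a log2 fold change of 5.99 ± 0.23. MT1F, whose difference was the smallest of the 6, measured 151, 135 and 139 CPM in CoCl2 and 13.3, 14.1 and 11.3 in OD, a log2 fold change of 3.45 ± 0.12. MT1G and MT1H were close to the limit of counting in OD. MT1G had 492 counts over the CoCl2 libraries and 10 over the OD libraries, a ratio of 45.2 after allowing for depth (95% interval 24.4 to 94.8, counting error only). MT1H had 196 and 2 counts, a ratio of 90.0 (24.6 to 749). The other 5 members, MT1A, MT1B, MT1M, MT3 and MT4, had at most 6 counts in any Caco-2 library and were not tested. Family members are closely alike in sequence, so the split of reads between them is uncertain.

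The promoters of the metallothioneins are shown because the metal response element that MTF1 binds can be read in them. The windows run from 250 bases before to 50 bases after a RefSeq start (GRCh38.p14), and capitals mark the core, searched as TGCACNC or TGCGCNC on both strands with overlapping matches allowed. MT2A lies at chr16:56608334-56608633, plus strand, MT1X at chr16:56682220-56682519, plus strand, and MT1H at chr16:56669564-56669863, plus strand.
MT2A: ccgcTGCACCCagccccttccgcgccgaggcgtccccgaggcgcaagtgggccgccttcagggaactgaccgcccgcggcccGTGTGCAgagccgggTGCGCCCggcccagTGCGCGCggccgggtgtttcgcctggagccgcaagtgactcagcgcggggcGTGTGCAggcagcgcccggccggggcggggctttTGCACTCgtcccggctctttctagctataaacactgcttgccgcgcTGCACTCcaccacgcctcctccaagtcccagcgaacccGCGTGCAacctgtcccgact
MT1X: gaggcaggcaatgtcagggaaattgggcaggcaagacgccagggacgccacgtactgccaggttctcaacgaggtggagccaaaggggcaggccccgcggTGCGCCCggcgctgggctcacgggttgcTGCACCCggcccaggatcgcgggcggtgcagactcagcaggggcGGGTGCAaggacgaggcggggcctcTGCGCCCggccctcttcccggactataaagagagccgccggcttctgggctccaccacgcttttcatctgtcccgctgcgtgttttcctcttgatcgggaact
MT1H: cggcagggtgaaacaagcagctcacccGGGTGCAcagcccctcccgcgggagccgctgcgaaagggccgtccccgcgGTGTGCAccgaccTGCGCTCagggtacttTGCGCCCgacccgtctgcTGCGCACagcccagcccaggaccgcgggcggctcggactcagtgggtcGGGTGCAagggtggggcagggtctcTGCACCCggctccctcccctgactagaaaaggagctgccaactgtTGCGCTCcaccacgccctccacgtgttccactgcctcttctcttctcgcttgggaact

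The core occurred 8 times in the window of MT2A, 4 times in that of MT1X and 8 times in that of MT1H. It was present in each of the 5 metallothionein windows held by the table, MT1B and MT4 included, and the windows of MT1B and MT4 hold 3 matches each although neither gene had a count in any Caco-2 library. The core is short and common: it occurred in 29.5% of all 35093 windows and in 36.5% of the 15771 windows of tested genes. Among windows of genes called higher in CoCl2 it occurred in 29.8%. A match is a description of the letters and not a site in use.

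Zinc and iron genes away from the metallothioneins differed in a few members. SLC30A1, the zinc exporter of the plasma membrane and another MTF1 target, measured 235, 247 and 256 CPM in CoCl2, 90.7, 110.3 and 105 in OD and 105, 77.9 and 94.3 in control. Its log2 fold change was 1.27 ± 0.09 (adjusted p = 6.8e-11), and its window holds 2 matches of the same core. It was the 1 gene called higher on a list of 22, the zinc transporters with MTF1, of which none was called lower and whose median was -0.06; without CoCl2 replicate 2 or 3, or OD replicate 3, 1 member was called lower. MTF1 itself had a log2 fold change of 0.38 ± 0.09, past the adjusted p but under the fold threshold.

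HMOX1, the enzyme that opens the heme ring and releases iron, carried the largest difference of the heme and iron genes. It measured 651, 574 and 615 CPM in CoCl2, 21.6, 23.6 and 27.6 in OD and 15.6, 19.3 and 18.4 in control (chr22:35380361-35394214, plus strand). The groups did not overlap, and the log2 fold change was 4.66 ± 0.10 (adjusted p = 5.7e-21), a 25.3-fold difference. Of the 14 heme genes tested, HMOX1 was called higher and 2 were called lower, PPOX (-1.08 ± 0.20), the oxidase before ferrochelatase, and FLVCR1 (-1.02 ± 0.08), a heme exporter. Neither of these calls was firm: without CoCl2 replicate 3 both fell under the fold threshold, FLVCR1 did so also without CoCl2 replicate 1 or OD replicate 2, and the list median was -0.21.

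The light chain of ferritin, the iron store, measured 9921, 8550.4 and 8867 CPM in CoCl2, 2658, 2359 and 2448 in OD and 2353, 2459 and 2379.6 in control. The OD libraries lay among the controls, and the log2 fold change between the agents was 1.87 ± 0.08 (adjusted p = 5.2e-15). Ferritin genes have processed pseudogenes that may take some of their reads. The heavy chain FTH1, which overlaps BEST1 on the other strand, spread more within groups, at 180.0, 126 and 107 CPM in CoCl2 and 80.0, 61.5 and 57.4 in OD, a log2 fold change of 1.05 ± 0.14 that dropped to 0.81 without CoCl2 replicate 1, and to 0.99 and 0.95 without OD replicates 2 and 3. STEAP3, a ferrireductase of endosomes, was lower in CoCl2 at 3.62 to 5.67 CPM against 8.61 to 12.5 (-1.15 ± 0.18), with values of -0.98 without CoCl2 replicate 3 and -0.99 without OD replicate 3. TFRC, the transferrin receptor, measured 997 to 1108 CPM in CoCl2 and 1265 to 1338 in OD, against 586 to 637 in control, and SLC11A2, the iron importer DMT1, 552 to 632 and 541 to 607 against 193 to 224. Both importers stood above control with either agent, and between the agents their log2 fold changes were -0.31 ± 0.07 and 0.03 ± 0.08. In all, 2 of 19 tested iron genes were called higher (10.5% against 5.21% of all genes) and 1 lower (5.26% against 6.44%), with a median of 0.03.

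NRF2 targets, the genes for glutathione synthesis, thioredoxin and NADPH supply, were higher in CoCl2 as a list. All 21 tested members passed the adjusted p upward and 11 also passed the fold threshold, 52.4% against the 5.21% of all genes, with a median of 1.11. GCLM, the modifier subunit of the rate-limiting enzyme of glutathione synthesis, measured 54.1, 52.0 and 53.5 CPM in CoCl2, 13.5, 12.3 and 10.2 in OD and 9.31, 8.79 and 8.24 in control (2.15 ± 0.11, adjusted p = 1.2e-13). Its catalytic partner GCLC measured 167, 182 and 181 CPM in CoCl2 and 72.7, 63.2 and 64.9 in OD (1.4 ± 0.08). The control means were 8.78 CPM for GCLM and 44.4 for GCLC, so OD lay between control and CoCl2 and nearer to control. OSGIN1, an oxidative stress-induced growth inhibitor, measured 139.7, 116 and 122 CPM in CoCl2 and 29.9, 35.5 and 36.8 in OD (1.88 ± 0.10). SQSTM1, the autophagy receptor that binds KEAP1, measured 723, 612 and 593 CPM in CoCl2 and 186, 186 and 198 in OD (1.76 ± 0.08). TXNRD1, thioredoxin reductase, measured 565, 601 and 626 CPM in CoCl2 and 224, 190.5 and 183 in OD (1.58 ± 0.08). NQO1 (1.11 ± 0.08) and AKR1C1 (1.24 ± 0.09) were called higher in CoCl2 and their OD means of 117 and 203 CPM were close to the control means of 116 and 201. ABCC2, an efflux pump for conjugates, had 1.23 ± 0.07 and the aldo-keto reductase AKR1C2 1.43 ± 0.11. HMOX1 and AKR1B10 completed the 11 calls. The aldo-keto reductases are close paralogs whose reads may be shared. ME1 (0.90), which makes NADPH, passed the adjusted p but not the fold threshold. The antioxidant response element core, searched as TGACNNNGC on both strands, occurred in 21.8% of windows of genes called higher, 15% of those called lower and 14.7% of those tested, and in 5 of 20 windows of NRF2 targets, against 13.4% of all windows.

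Heat shock genes held 11 of 20 called higher (55.0% against 5.21% of all genes) and none lower, with a median of 1.06. The list of 20 was not confined to cytosolic chaperones, since it included the mitochondrial HSPE1, its lowest member. HSPA1A, the stress-induced HSP70, measured 308, 318 and 298 CPM in CoCl2, 38.1, 36.8 and 43.0 in OD and 35.0, 34 and 34.6 in control. The OD libraries lay close to the controls, and the log2 fold change between the agents was 2.97 ± 0.08 (adjusted p = 3.7e-19). HSPA1B, whose coding sequence is almost the same as that of HSPA1A so that reads may be shared, measured 122, 132 and 120.5 CPM in CoCl2 and 21.1, 27.3 and 26.1 in OD (2.33 ± 0.10). HSPA6, an HSP70 made mainly under strong stress, had 500 counts over the CoCl2 libraries against 19 over the OD libraries, a ratio of 24.2 (95% interval 15.3 to 40.5, counting error only). With at most 10 counts in any OD or control library, its place among the tested genes leaned on the CoCl2 libraries. CRYAB, a small heat shock protein, measured 5.00, 6.18 and 7.30 CPM in CoCl2 and 1.08, 0.841 and 0.423 in OD (2.97 ± 0.29). The abundant constitutive chaperones differed less: HSPA8 measured 4681, 4932 and 4983 CPM in CoCl2 and 2496, 2150.3 and 2141 in OD (1.10 ± 0.08), and HSP90AA1 and HSP90AB1 had 1.15 ± 0.09 and 1.17 ± 0.09. HSPH1 (1.41 ± 0.10), HSPB8 (1.53 ± 0.13) and DNAJB1 (1.02 ± 0.08) were also called, as was HSPB1, and DNAJB1 was no longer called without OD replicate 3 (0.95). The mitochondrial chaperonins, whose genes share a promoter region, were not called, with 0.41 ± 0.08 for HSPD1 and -0.44 ± 0.09 for HSPE1. None of 18 chaperones and folding enzymes of the endoplasmic reticulum was called in either direction, and their log2 fold changes ran from -0.81 to 0.48 with a median of 0.04; 4 passed the adjusted p alone upward and 5 downward.

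**Figure D2:**
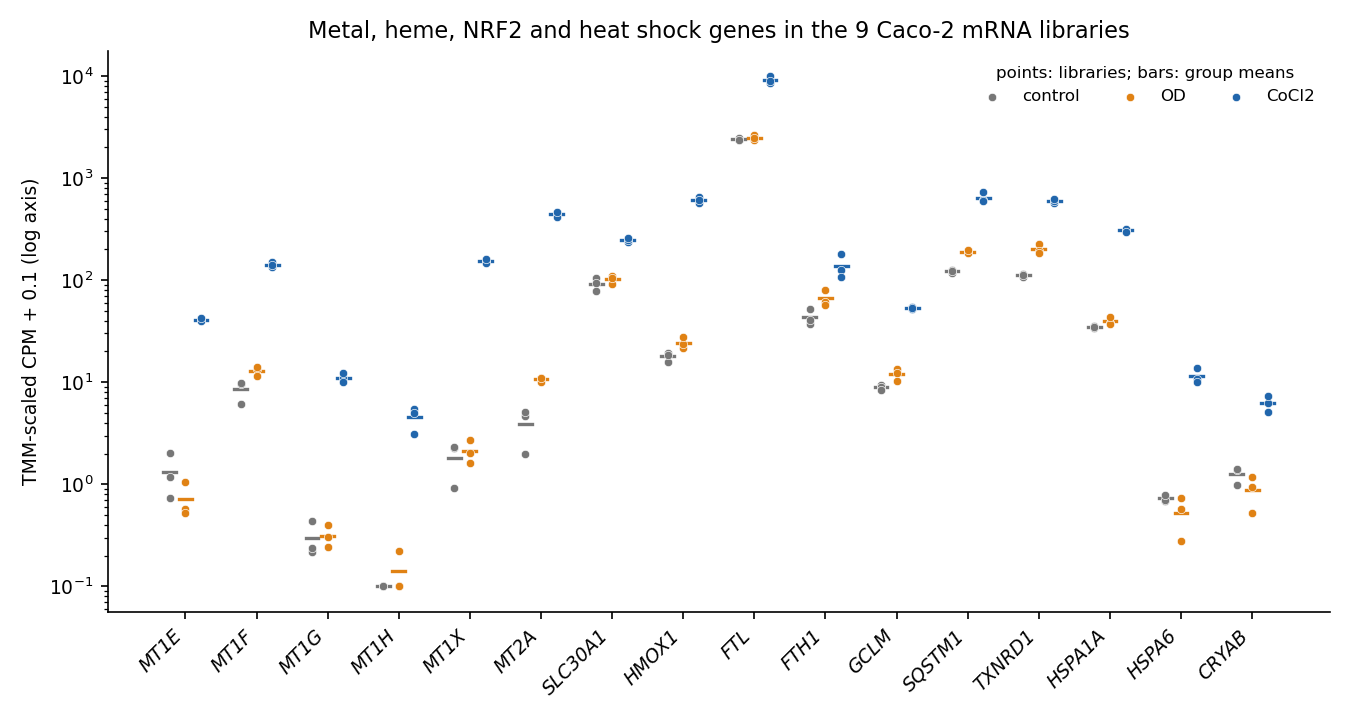
TMM-scaled CPM plus 0.1 on a log axis for 16 genes of metal, heme, antioxidant and heat shock responses in the 9 Caco-2 libraries, with points for libraries and bars for group means. In every gene drawn the 3 CoCl2 libraries sit above the 3 OD libraries, and for MT1X, SLC30A1, FTL and HSPA1A the OD libraries sit near the controls.

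The 9 hypoxia genes that the study singles out had a median log2 fold change of 3.14 for CoCl2 minus control and 2.46 for OD minus control, and most of them differed between the agents by less than the fold threshold. All 9 had a log2 fold change above 0 (CoCl2 minus OD), 8 passed the adjusted p, and 2 were called, with a median of 0.58; without OD replicate 1, 4 were called. The list was picked on libraries that include these, so its direction against control is not independent evidence. ANKRD37, an ankyrin-repeat protein, measured 41.2, 28.8 and 34.3 CPM in CoCl2, 10.6, 9.91 and 8.11 in OD and 0.815, 0.738 and 0.762 in control (1.86 ± 0.14, adjusted p = 7.4e-11). DDIT4, an inhibitor of mTORC1, measured 139, 102 and 111 CPM in CoCl2, 41.4, 41.1 and 42.4 in OD and 7.33, 7.51 and 9.62 in control (1.49 ± 0.10, adjusted p = 2.2e-11). In both genes OD stood well above control and CoCl2 well above OD. BHLHE40, a circadian repressor, had 0.98 ± 0.08, and without OD replicate 1 it passed the fold threshold at 1.05. BNIP3, a mitophagy receptor, measured 525, 504 and 486 CPM in CoCl2 and 318, 266 and 241 in OD (0.88 ± 0.08), a call gained without OD replicate 1. PDK1, the kinase that shuts pyruvate dehydrogenase, measured 218, 254 and 247 CPM in CoCl2 and 154, 172 and 156 in OD against 23.5, 25.7 and 21.9 in control (0.58 ± 0.08). NDRG1, a stress-response gene, measured 2029 to 2136 CPM in CoCl2 and 1497 to 1598 in OD against 257 to 311 in control (0.41 ± 0.08). ALDOC, an aldolase, measured 226, 204 and 217 CPM in CoCl2, 204, 205 and 219 in OD and 65.5, 63.0 and 58.8 in control, and the CoCl2 and OD libraries overlapped. Its log2 fold change was 0.04 ± 0.07 (adjusted p = 0.63), with an approximate 95% interval of -0.10 to 0.19. Without scaling for composition it was -0.12.

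The promoter windows of the member with the largest difference, ANKRD37, and of the member with the smallest, ALDOC, are printed with the hypoxia response element core in capitals, searched as ACGTG or GCGTG on both strands. ANKRD37 lies at chr4:185396591-185396890, plus strand, and ALDOC at chr17:28576846-28577145, minus strand.
ANKRD37: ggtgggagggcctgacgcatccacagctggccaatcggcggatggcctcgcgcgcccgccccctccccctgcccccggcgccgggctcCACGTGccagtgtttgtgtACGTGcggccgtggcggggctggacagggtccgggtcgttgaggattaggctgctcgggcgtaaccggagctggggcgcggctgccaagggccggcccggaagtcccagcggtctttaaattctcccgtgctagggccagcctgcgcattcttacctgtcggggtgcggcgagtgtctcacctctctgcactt
ALDOC: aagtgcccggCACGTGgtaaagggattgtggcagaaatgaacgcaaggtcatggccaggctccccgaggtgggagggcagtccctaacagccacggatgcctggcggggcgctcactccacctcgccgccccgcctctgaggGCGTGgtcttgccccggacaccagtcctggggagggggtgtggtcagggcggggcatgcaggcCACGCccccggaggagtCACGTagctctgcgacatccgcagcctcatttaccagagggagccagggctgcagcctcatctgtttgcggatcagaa

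The core occurred 3 times in the window of ANKRD37 and 5 times in that of ALDOC, where CACGTG holds the core on both strands and counts for each. It occurred in 9 of 10 windows of the 8 hypoxia genes in the table, in 48.4% of all windows, in 59.6% of those of tested genes, in 53.8% of those called higher and in 52.4% of those called lower. The core was not particular to hypoxia genes: it occurred in 20 of 22 windows of sterol synthesis genes and 18 of 26 of heat shock genes. For glycolytic genes the count was 29 of 45 windows, and for NRF2 targets 9 of 20. No difference between these shares was tested.

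Of 13 tested genes of the HIF machinery, 2 were called higher (15.4% against 5.21% of all genes) and none lower, with a median of 0.05. EGLN3, a HIF prolyl hydroxylase that is itself a HIF target, measured 32.1, 34.5 and 33.7 CPM in CoCl2, 11.4, 7.51 and 7.13 in OD and 5.12, 4.29 and 4.08 in control (1.95 ± 0.14, adjusted p = 7e-11). OD replicate 1 was the highest of the OD libraries and the groups did not overlap. EGLN1, the main hydroxylase, measured 21.9 to 28.2 CPM in CoCl2 and 12.6 to 16.7 in OD against 2.68 to 3.49 in control, and its 0.72 ± 0.13 stayed under the fold threshold. CITED2, which competes with HIF for its coactivators, was called at 1.07 ± 0.07. The subunits themselves were not called: HIF1A had 0.33 ± 0.10 with overlapping groups, EPAS1 -0.05 ± 0.07 (adjusted p = 0.58) and HIF3A -0.60 ± 0.16.

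Of 20 glycolytic genes 5 were called higher in CoCl2 (25% against 5.21% of all genes) and none lower, with a median of 0.48, and the list's median was 2.57 for CoCl2 minus control and 1.82 for OD minus control. GAPDH measured 7908, 7285 and 7448 CPM in CoCl2, 3314, 3176 and 3354 in OD and 1073, 1192 and 1125 in control (1.20 ± 0.07, adjusted p = 3.6e-12). ENO2, the neuronal-type enolase, measured 412, 381 and 367 CPM in CoCl2, 179, 163 and 166 in OD and 18.7, 19.8 and 15.9 in control (1.19 ± 0.08), and PFKFB3, which makes the activator of phosphofructokinase, 291, 282 and 252 CPM in CoCl2, 124, 124 and 117 in OD and 39.4, 43.1 and 36.6 in control (1.18 ± 0.08). In these 3 genes OD lay between control and CoCl2 in every library. HK1 (1.11 ± 0.11) and ALDOA (1.12 ± 0.18) were called as well, ALDOA no longer without CoCl2 replicate 1 (0.92) or OD replicates 2 (0.98) or 3 (0.92). SLC2A1, the glucose transporter GLUT1, measured 1434 to 1658 CPM in CoCl2 and 1077 to 1178 in OD against 165 to 175 in control (0.45 ± 0.07). LDHA and PGK1 stood at 0.23 ± 0.08 and 0.37 ± 0.08, past the adjusted p and far under the fold threshold. PFKL, the liver-type phosphofructokinase, went the other way at -0.63 ± 0.09, also under the threshold.

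Among 11 angiogenic and pH-regulating genes tested, 2 were called higher (18.2% against 5.21% of all genes) and none lower, with a median of 0.18. ADM, the vasodilator peptide adrenomedullin, measured 109.8, 98.5 and 92.1 CPM in CoCl2, 13.3, 13.1 and 12.6 in OD and 9.02, 7.91 and 10.0 in control (chr11:10305073-10307397, plus strand). It set the agents apart by 2.94 ± 0.10 (adjusted p = 6.5e-17), a 7.69-fold difference, while OD stood 0.53 above control. VEGFA, the angiogenic factor most often used as a HIF readout, measured 490.2 to 539.8 CPM in CoCl2 and 431 to 469 in OD against 190.5 to 197 in control (0.18 ± 0.07). ADM and VEGFA are both textbook HIF targets, and their differences between the agents were far apart. Of 16 Jumonji demethylases, which like the HIF hydroxylases need iron and 2-oxoglutarate, 2 were called higher (12.5% against 5.21% of all genes) and none lower. These were KDM5B (1.13 ± 0.07) and KDM7A (1.10 ± 0.11), and the list median was 0.29. Without OD replicate 1, 3 were called higher.

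**Figure D3:**
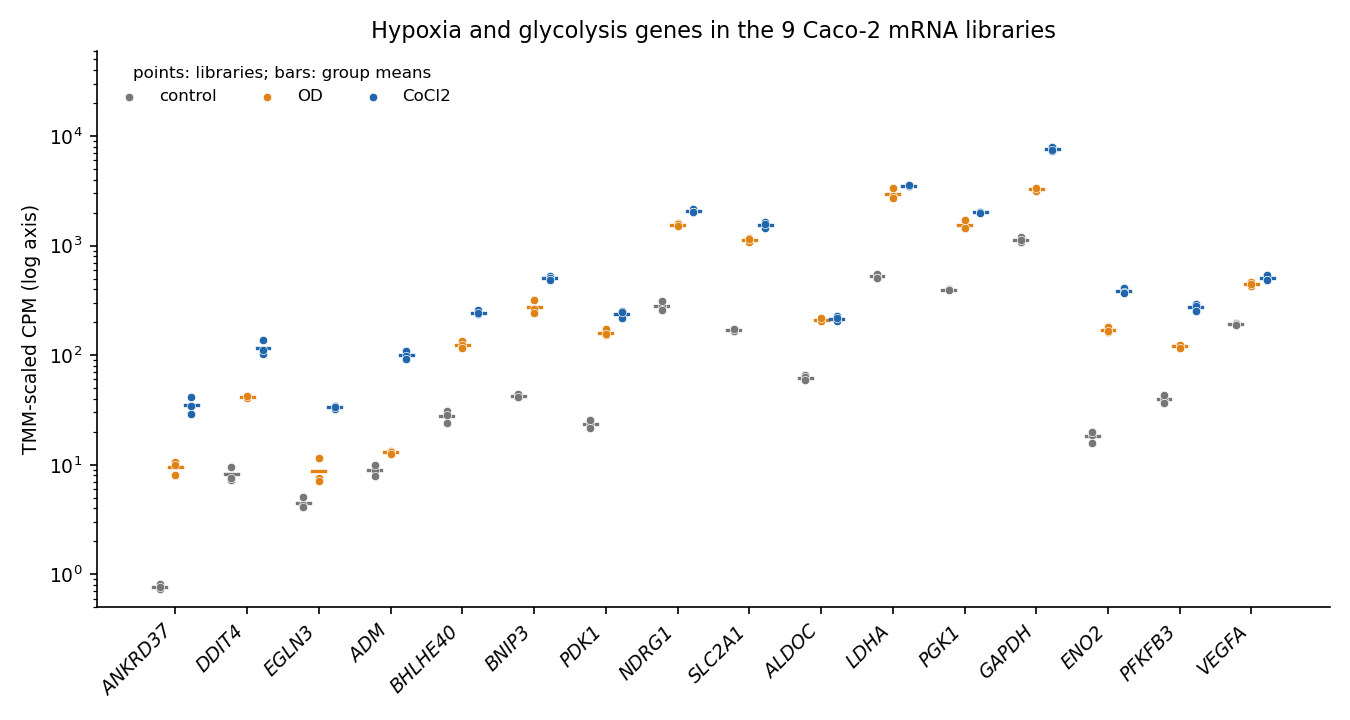
TMM-scaled CPM on a log axis for 16 hypoxia and glycolysis genes in the 9 Caco-2 libraries, with points for libraries and bars for group means. For ADM and EGLN3 the OD mean lies nearer to control than to CoCl2, for the other 14 genes it lies nearer to CoCl2, and for ALDOC the OD and CoCl2 libraries overlap.

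Several early-response transcription factors were higher in CoCl2. Of 18 tested genes of the FOS, JUN and EGR families and their feedback regulators, 7 were called higher (38.9% against 5.21% of all genes) and none lower, with a median of 0.44, and 8 were called higher without OD replicate 1. FOSL1, an AP-1 subunit, measured 36.1, 30.5 and 28.7 CPM in CoCl2, 3.3, 2.88 and 3.60 in OD and 0.64, 1.07 and 0.969 in control (3.28 ± 0.15, adjusted p = 2.3e-14). FOS measured 86.4, 80.4 and 80.9 CPM in CoCl2, 21.3, 18.5 and 21.0 in OD and 5.06, 4.90 and 3.12 in control (2.03 ± 0.11), and JUN 121, 97.4 and 97.0 CPM in CoCl2, 34.8, 31.6 and 36.3 in OD and 11.2, 12.1 and 11.6 in control (1.62 ± 0.09). For these 3 subunits OD lay between control and CoCl2. EGR1, a zinc-finger factor induced through ERK, measured 23.2, 24.5 and 23.3 CPM in CoCl2, 4.57, 5.28 and 5.79 in OD and 7.10, 8.65 and 8.72 in control (2.18 ± 0.14), so that OD lay below control and CoCl2 above it. The phosphatases DUSP1 (1.33 ± 0.09) and DUSP6 (1.27 ± 0.09), which switch off MAP kinases, and FOSB (1.36 ± 0.36) made up the calls. FOSB was low, at 3.17 to 4.22 CPM against 0.961 to 2.22, and was not called by DESeq2 (adjusted p = 0.10). MYC stood at 0.96 ± 0.09, under the threshold, with 1.02 without CoCl2 replicate 2 and 1.03 without OD replicate 1.

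Of 17 NF-kB target genes tested, 3 were called higher (17.6% against 5.21% of all genes) and none lower, with a median of 0.52. CCL20, a chemokine for dendritic cells and lymphocytes, measured 27.6, 26.4 and 25.6 CPM in CoCl2, 7.06, 6.01 and 5.86 in OD and 1.75, 1.88 and 1.25 in control (2.07 ± 0.13, adjusted p = 8.2e-12). IER3 (1.51 ± 0.22) and CXCL1 (1.97 ± 0.50) were called from low levels, CXCL1 at 0.945 to 2.08 CPM against 0.24 to 0.404. NFKB1, the precursor subunit, measured 27.3 to 27.9 CPM in CoCl2 and 45.1 to 51.2 in OD (-0.80 ± 0.09). Among 17 tested p53 targets, GDF15, a stress cytokine, was higher at 88.4 to 114 CPM against 28.3 to 34.6 (1.62 ± 0.10) and TP53I3, a quinone oxidoreductase, was lower at 3.33 to 4.21 against 12.3 to 15.1 (-1.80 ± 0.15). CDKN1A, the p21 inhibitor, had 0.32 ± 0.09, and the list median was 0.03; without CoCl2 replicate 1 or 2, 2 members were called lower. Of 9 tested targets of the aryl hydrocarbon receptor, 2 were called higher, NQO1, which is on the NRF2 list as well, and UGT1A6, and the median was -0.09.

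Genes of the integrated stress response, the ATF4 program for amino acid supply, held calls in the lower direction only. None of 23 tested was called higher and 7 were called lower (30.4% against 6.44% of all genes), with a median of -0.26; without OD replicate 1, 6 were called lower. CHAC1, which degrades glutathione, measured 1.17, 1.16 and 1.46 CPM in CoCl2, 5.65, 5.34 and 8.33 in OD and 2.68, 2.82 and 3.88 in control (-2.32 ± 0.25, adjusted p = 5e-08). PSAT1, PHGDH and PSPH are the 3 enzymes of serine synthesis, and all were called. PSAT1 measured 11.7, 14.6 and 10.5 CPM in CoCl2, 38.0, 35.2 and 35.6 in OD and 32.6, 29.2 and 33.4 in control (-1.57 ± 0.12). PHGDH measured 90.4, 77.8 and 78.0 CPM in CoCl2, 172, 165 and 180.4 in OD and 182, 194 and 182 in control (-1.07 ± 0.08), and PSPH 20.8, 22.7 and 19.5 CPM in CoCl2, 49.3, 42.6 and 45.8 in OD and 61.2, 60.3 and 59.1 in control (-1.13 ± 0.09). For all 3 enzymes CoCl2 lay below both other groups, and OD was the nearer to control. MTHFD2, the mitochondrial folate enzyme, showed another order, with 100.3, 98.2 and 106 CPM in CoCl2, 225, 199 and 195 in OD and 81.8, 69.5 and 76.2 in control (-1.03 ± 0.08, and -0.95 without OD replicate 1). ALDH1L2 (-1.46 ± 0.26) and ASNS, asparagine synthetase (-1.55 ± 0.38), were called from low levels, ASNS at 0.379 to 1.02 CPM against 1.82 to 2.58. The factors ATF4 and ATF3 and the feedback gene TRIB3 were not called: ATF4 had -0.25 ± 0.08, ATF3 0.69 ± 0.13 and TRIB3 0.77 ± 0.08.

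Replication genes leaned lower in CoCl2 than in OD. Of 21 tested, 20 lay below 0, 19 passed the adjusted p downward, where 25.2% of all genes did, and 5 were called lower (23.8% against 6.44% of all genes), with a median of -0.68 and none called higher. The list's median was 0.97 for OD minus control and 0.14 for CoCl2 minus control. E2F1, the factor that drives entry into S phase, measured 40.4, 34.6 and 28.6 CPM in CoCl2, 115, 109.7 and 118 in OD and 42.4, 43.8 and 40.8 in control (-1.74 ± 0.10, adjusted p = 6.2e-13). CDC45, a part of the replicative helicase, measured 13.2, 13.3 and 9.57 CPM in CoCl2, 28.6, 32.2 and 32.6 in OD and 11.4, 14.3 and 12.1 in control (-1.39 ± 0.13), and PCNA, the sliding clamp, 89.9, 104 and 109 CPM in CoCl2, 235, 216 and 203 in OD and 107, 112 and 110.3 in control (-1.11 ± 0.08). In each of these the OD libraries lay above every CoCl2 and control library. MCM4 (-1.16 ± 0.07) and POLA1 (-1.0 ± 0.11) were called too, POLA1 at the edge of the threshold and under it without CoCl2 replicate 1 (-0.96) or 3 (-0.98) or OD replicate 2 (-0.91). None of 19 mitosis genes was called, and their median was 0.01, with 5 past the adjusted p upward and 5 downward. MKI67, the proliferation antigen, had -0.95 ± 0.07, whereas CCNB1 (0.87 ± 0.09) and CDC20 (0.91 ± 0.10), which act in mitosis, passed the adjusted p upward under the fold threshold.

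Of 20 brush border genes of the differentiated enterocyte 2 were called lower in CoCl2 (10% against 6.44% of all genes) and none higher. Their median was -0.42, and 11 passed the adjusted p downward, where 25.2% of all genes did. LCT, lactase, measured 2.50, 3.42 and 3.73 CPM in CoCl2, 11.2, 12.4 and 11.6 in OD and 8.96, 9.19 and 9.14 in control (-1.84 ± 0.16, adjusted p = 1.6e-09). SI, sucrase-isomaltase, measured 94.2, 131 and 119 CPM in CoCl2, 198, 268 and 228 in OD and 246, 319 and 303 in control (-1.01 ± 0.11, and -0.89 without either CoCl2 replicate 1 or OD replicate 2). VIL1, villin, and FABP1, the fatty acid binding protein, stood just short of the threshold at -0.97 ± 0.07 and -0.99 ± 0.08. For these 4 genes the CoCl2 libraries lay below every OD library. APOB, the scaffold of lipoprotein particles, measured 958, 1189 and 1040.3 CPM in CoCl2, 2060.1, 2519 and 2498 in OD and 3948, 3914 and 3919 in control (-1.15 ± 0.09), the 1 gene called lower among 15 of lipoprotein export. Among 14 intestinal factors 2 were called lower, among them KLF4 (-1.05 ± 0.10, and -0.99 without OD replicate 1), and CDX2 had 0.83 ± 0.08; without OD replicate 1 the list held 1 higher and 1 lower call. Of 16 tight junction genes 2 were called higher (12.5% against 5.21% of all genes) and none lower. Among the 2 was CLDN4, a sealing claudin, at 1033 to 1255 CPM in CoCl2 against 449 to 465 in OD and 218 to 243 in control (1.32 ± 0.08). The UDP-glucuronosyltransferases, which conjugate drugs and bilirubin, had 1 of 9 called higher, UGT1A6 (1.4 ± 0.27), which is 11.1% against 5.21% of all genes. The 3 called lower (33.3% against 6.44%) were UGT2B4 (-1.45 ± 0.21), UGT2B11 (-2.14 ± 0.51) and UGT2B15 (-1.08 ± 0.25, and -0.86 without CoCl2 replicate 1). These transferases share exons or close paralogs, and UGT2B11 rested on a mean of 9.50 counts. ID1, a BMP target, was called higher (1.23 ± 0.15) and SMAD6, an inhibitor of the same pathway, lower at 0.974 to 1.38 CPM against 4.8 to 5.64 (-2.23 ± 0.23), among 12 genes with a median of -0.18; without CoCl2 replicate 1, 2 members were called lower. Of 13 collagen-modifying genes P4HA3 was called higher, a call lost without CoCl2 replicate 1 or 3 or OD replicate 3, and LOXL2 and LOXL3 were called lower, 1 of these calls being lost without CoCl2 replicate 3 or OD replicate 1.

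The urokinase receptor and the integrin that the study follows stood above control with both agents. PLAUR, the receptor, measured 14.4, 8.94 and 13.5 CPM in CoCl2, 6.73, 5.04 and 5.86 in OD and 1.92, 1.88 and 1.66 in control (1.07 ± 0.18, adjusted p = 2e-05). The groups did not overlap, and the value fell under the fold threshold without CoCl2 replicate 1 (0.95) or 3 (0.98) or OD replicate 2 (0.96). ITGA5 measured 86.9, 78.6 and 77.7 CPM in CoCl2, 63.0, 62.9 and 68.4 in OD and 4.42, 5.10 and 3.95 in control (0.32 ± 0.08), a 1.25-fold difference between the agents. PLAU, the protease itself, was called at 1.03 ± 0.39 from a mean of 13.5 counts. It fell under the fold threshold without CoCl2 replicate 1 (0.97) or 3 (0.92) or OD replicate 2 (0.89) or 3 (0.92). In each of these fits PLAU also missed the adjusted p of the quasi-likelihood test (0.078 to 0.12), and it missed that of DESeq2 with all libraries (0.066). NFATC1, a calcium-dependent factor, rested on a mean of 18.7 counts and had 0.26 ± 0.33 (adjusted p = 0.55). Of 16 genes of this list 3 were called higher (18.75% against 5.21% of all genes) and none lower, with a median of 0.02. Without CoCl2 replicate 1 or 3, or OD replicate 2, the count was 1.

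The study also names genes that moved the same way with both agents in differentiated and undifferentiated Caco-2, a choice made partly on these libraries. Of the 114 tested from its upregulated set, 28 were called higher in CoCl2 than in OD (24.6% against 5.21% of all genes) and 1 lower, with a median of 0.57, and 35 were called higher without OD replicate 1. TNFSF9, a cytokine of the TNF family, had 2.66 ± 0.27, with 6.10 to 8.0 CPM in CoCl2 and 0.807 to 1.62 in OD. The 1 lower gene was PCK1, the gluconeogenic enzyme, at 8.58, 8.86 and 9.52 CPM in CoCl2, 24.1, 19.2 and 20.9 in OD and 2.79, 3.42 and 3.32 in control (-1.24 ± 0.13). Of the 68 tested from the downregulated set, 9 were called lower (13.2% against 6.44% of all genes) and 2 higher, with a median of -0.34; without OD replicate 1 the counts were 8 and 1. APELA, a peptide hormone gene, measured 2.25, 2.62 and 2.87 CPM in CoCl2, 8.47, 7.99 and 6.77 in OD and 21.1, 21.4 and 23.0 in control (-1.57 ± 0.17), and ERVMER34-1, an endogenous retroviral envelope gene, had -1.55 ± 0.13. The 2 higher genes, FABP5 (1.39 ± 0.49) and AFM (1.54 ± 0.35), rested on means of 9.0 and 23.3 counts, and the FABP5 call was lost without CoCl2 replicate 3 or OD replicate 1.

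Transcripts of mitochondrial DNA, sterol synthesis and the nuclear respiratory chain held 1 call in all. All 13 mitochondrial transcripts lay above 0 and 12 passed the adjusted p, with a median of 0.36, 0.20 without scaling for composition, and none was called. Against control the median of these transcripts was below 0 with both agents, at -0.28 for CoCl2 and -0.65 for OD. Over all genes, 24.4% passed the adjusted p upward and 25.2% downward. Of 26 nuclear subunits none was called, 13 passed the adjusted p downward and 1 upward, with a median of -0.23. Of 24 sterol genes 16 passed the adjusted p downward and 1 was called, LSS, the cyclase of cholesterol synthesis, at 86.3 to 101 CPM in CoCl2, 239 to 285 in OD and 164 to 177 in control (-1.45 ± 0.08); 2 were called when CoCl2 replicate 1 or 3 or OD replicate 2 or 3 was left out. HMGCS1, an early enzyme of the pathway, had 0.25 ± 0.08, upward and under the fold threshold.

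**Figure D4:**
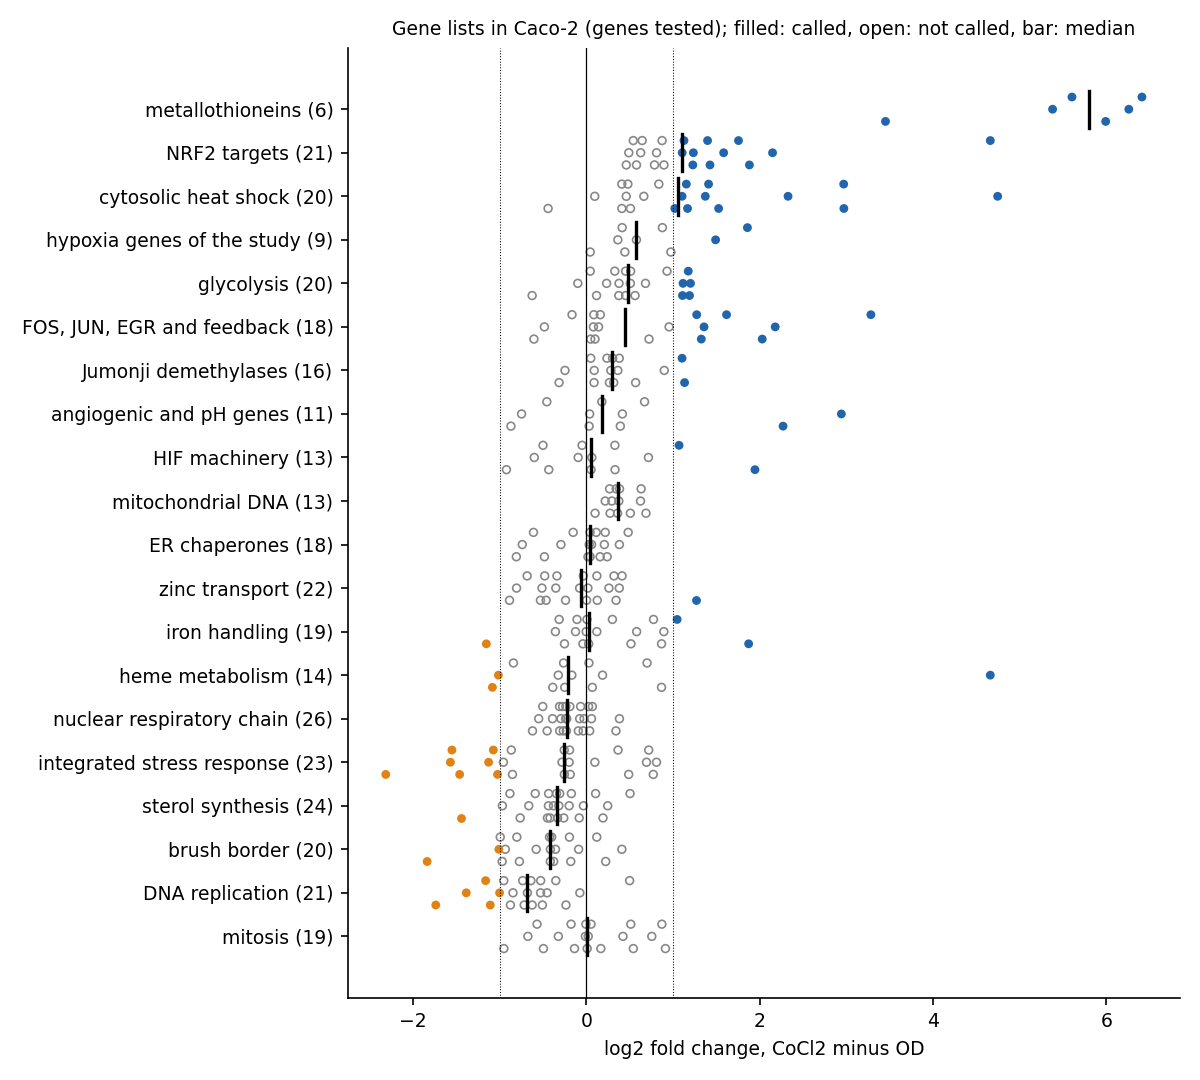
Log2 fold change (CoCl2 minus OD) of the tested members of 20 gene lists, with filled points for called genes, open points for genes not called and a bar at each list's median. Metallothioneins lie farthest up, NRF2 and heat shock lists have medians just over 1, and replication has the lowest median drawn, -0.68.

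Among well-counted genes ranked by size, with a mean of at least 100 counts and no overlap between groups, the 15 highest held 4 metallothioneins, HMOX1, HSPA1A, FOSL1 and ADM, and 7 genes not described above. MLLT11 measured 14.4, 15.4 and 18.6 CPM in CoCl2 and 1.35, 1.62 and 0.635 in OD (3.72 ± 0.23), and ZNF280A, a zinc-finger gene, 12.7, 12.7 and 13.8 CPM in CoCl2 and 0.74, 1.08 and 1.34 in OD (3.63 ± 0.21). DHRS2, a short-chain dehydrogenase, measured 30.5, 33.6 and 23.3 CPM in CoCl2, 1.68, 2.22 and 3.03 in OD and 12.7, 14.4 and 14.5 in control (3.65 ± 0.18), so OD lay below control and CoCl2 above it. The histone gene H2BC21 had the same order, 69.9, 71.6 and 77.9 CPM in CoCl2, 7.26, 7.21 and 6.49 in OD and 14.1, 15.4 and 14.3 in control (3.39 ± 0.11, adjusted p = 9.8e-18). The microtubule protein gene MAP1A (2.89 ± 0.13), the DNA helicase gene HELB (2.79 ± 0.26) and the kinase gene STYK1 (2.69 ± 0.14) completed the set, and STYK1 is also on the study's upregulated set.

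The 15 lowest by the same rule were led by LINC00342, SFXN2 and ZNF37BP, for which both OD and control lay above CoCl2. LINC00342, a long noncoding RNA, measured 1.42, 2.83 and 2.38 CPM in CoCl2, 13.9, 17.9 and 21.2 in OD and 19.0, 20.2 and 23.5 in control (-2.97 ± 0.20, adjusted p = 1.3e-11). SFXN2, a mitochondrial carrier of the sideroflexin family, measured 2.25, 2.98 and 3.3 CPM in CoCl2, 19.0, 15.3 and 16.9 in OD and 24.2, 24.9 and 23.6 in control (-2.55 ± 0.15), and the pseudogene ZNF37BP had -2.49 ± 0.19. SLC1A4, a transporter of serine and other neutral amino acids, measured 15.6, 14.5 and 13.2 CPM in CoCl2, 49.0, 50.1 and 58.8 in OD and 24.6, 25.2 and 29.1 in control (-1.87 ± 0.11). CAPN8, a calpain, measured 22.7, 23.0 and 20.9 CPM in CoCl2, 91.1, 82.9 and 96.7 in OD and 43.1, 44.5 and 38.3 in control (-2.03 ± 0.09), and FER1L4 6.17, 4.58 and 5.68 CPM in CoCl2, 18, 18.9 and 24.0 in OD and 4.89, 4.56 and 4.08 in control (-1.89 ± 0.15). For SLC1A4, CAPN8 and FER1L4 the OD libraries lay above the controls. PDGFRB, a growth factor receptor that is also a fibroblast marker, measured 3.08, 2.54 and 3.68 CPM in CoCl2, 13.8, 12.3 and 11.6 in OD and 49.5, 58.1 and 54.0 in control (-2.0 ± 0.15), and the part of other cell types in it was not tested. SMPD1, acid sphingomyelinase, had -1.98 ± 0.12, with 7.73 to 10.3 CPM in CoCl2 and 31.5 to 36.2 in OD, and G0S2, an inhibitor of triglyceride lipase, -1.86 ± 0.14. The other 6 were CFAP44 (-2.47), STOX1 (-2.01), SOWAHA (-1.88), CTBP1-DT (-1.87), FAM111B (-1.87) and TLCD2 (-1.86).

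The same contrast in HT-29, a second colorectal line whose 6 treated libraries share none with Caco-2, gave the following. In HT-29, 4734 of 15812 genes were called (29.9%), with 1702 higher in CoCl2 (10.8%) and 3032 lower (19.2%). Of the 835 genes higher in Caco-2, 661 were tested in HT-29, where 327 were called higher and 43 lower, and the 327 shared genes were 39.2% of the Caco-2 list and 19.2% of the HT-29 list. Of the 1033 lower genes, 745 were tested in HT-29, where 430 were called lower and 11 higher, and the shared genes were 41.6% and 14.2% of the lists. In HT-29 5 of 6 tested metallothioneins were higher in CoCl2 (median 5.30), as were 13 of 22 NRF2 targets (median 1.25) and 14 of 19 heat shock genes (median 1.75). MT1G was near the limit of counting outside CoCl2 there as well, at means of 0.38 CPM in control and 0.13 in OD. Line and culture state cannot be told apart, since the labels give differentiation for Caco-2 only.

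A direct test of the difference between the lines, the Caco-2 difference minus the HT-29 difference in one fit, called 3422 of 17921 genes (19.1%), 2486 above 0 (13.9%) and 936 below (5.22%), of which 2043 and 798 had enough reads to be tested in each line alone, with a median of 0.13 over all genes that moved to 0.37 without scaling for composition and 0.04 in DESeq2. Values below 0 mean a smaller difference in Caco-2 where CoCl2 was the higher in both lines. Of 20 glycolytic genes 13 were called below 0 and none above, with a median of -1.24 (11 below and a median of -1.0 without scaling for composition), and 4 of the 9 hypoxia genes were called below and 1 above (3 below without that scaling, 5 in DESeq2). SLC2A1 differed between the agents by 0.45 in Caco-2 and 2.76 in HT-29, PDK1 by 0.58 and 2.98, and NDRG1 by 0.41 and 3.15. BNIP3 was the member above 0, with 0.88 in Caco-2 and -0.51 in HT-29. In HT-29 it was not called and was low, at means of 3.75 CPM in CoCl2 and 5.33 in OD, against 505 and 275 in Caco-2. NF-kB targets went the other way, with 10 of 19 called above 0 and none below and a median of 1.09, or 8 of the 17 testable in each line alone with a median of 0.95: CCL20 stood at 2.07 in Caco-2 and -0.37 in HT-29. Of 7 metallothioneins, 5 of them testable in each line alone, 1 was called, MT1E (5.99 and 5.01), and 2 without scaling for composition. This does not show that the others were equal in both lines. HMOX1 differed less between the agents in Caco-2 (4.66) than in HT-29 (7.41), and it and ABCC2 were the 2 NRF2 targets called below 0.

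**Figure D5:**
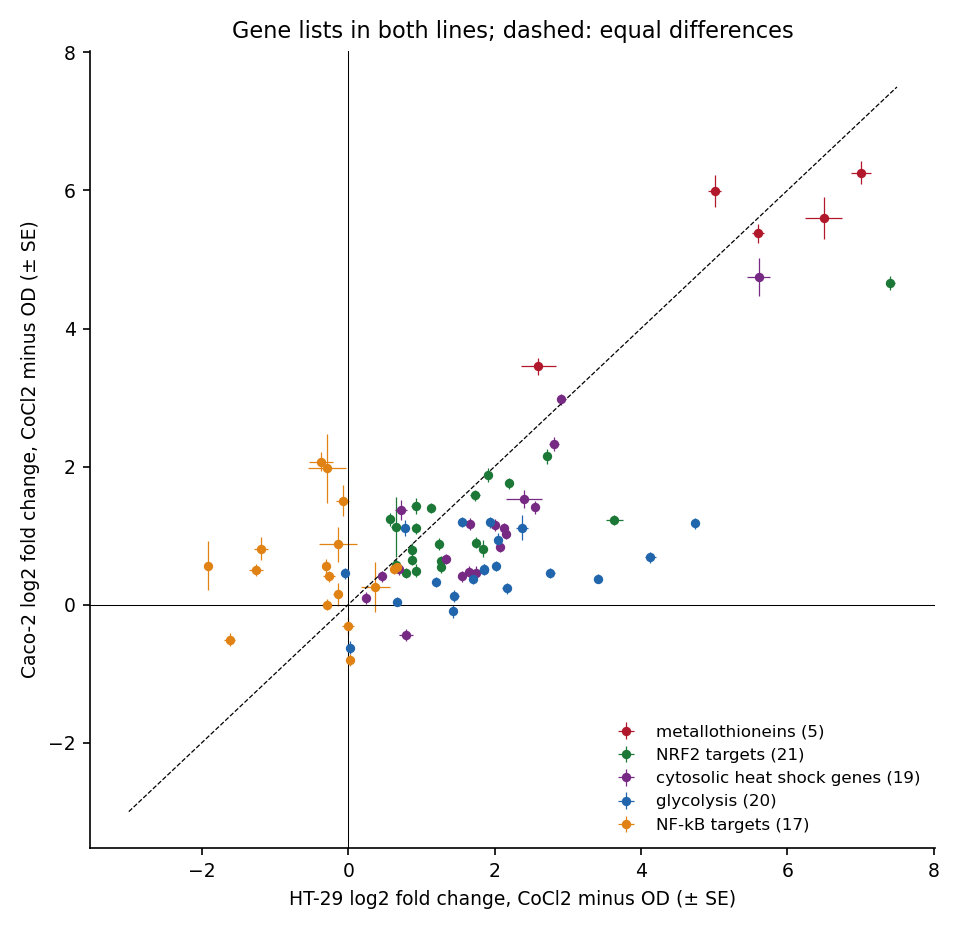
Log2 fold change (CoCl2 minus OD) in Caco-2 against that in HT-29 for the genes of 5 lists tested in both lines, with bars for the SE and a dashed line where the differences are equal. Glycolysis genes lie mostly below the line, NF-kB targets mostly above it, and metallothioneins at the upper right.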

How the data were processed

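Poly(A)-selected mRNA libraries of Caco-2 were compared, 3 treated with CoCl2, 3 with OD and 3 controls, with the 9 mRNA libraries of HT-29 used for a test of the difference between lines. The deposited values were raw read counts per gene symbol. The authors checked the reads with FastQC 0.11.9, trimmed them with cutadapt 2.10 and aligned them to GRCh38 with STAR 2.7.5b, and their processing notes also name edgeR 3.30.3. The counting tool and its strand setting are not given in the sources used here, so genes that overlap on opposite strands cannot be told apart. The authors also deposited a log2 table of length-scaled values with a pseudocount of 1, which was used for an alternative and holds MT1E at 0 in each Caco-2 library although reads were counted for it.

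From the counts, genes were filtered with filterByExpr, scaled by TMM and tested with edgeR 4.0.16 (R 4.3.3) by the two-sided quasi-likelihood F test over the 9 Caco-2 libraries, with Benjamini-Hochberg adjustment over all 16034 genes. The SE was the log2 fold change divided by the square root of F. The control libraries entered the scaling and the spread but not the contrast. Library totals were 13091650 to 20966763 reads, and intervals from few counts cover counting error only. In data simulated on 15542 genes for CoCl2 minus OD, 200 genes were given a change, far fewer than passed the adjusted p in the real data. Of genes with a true log2 difference of 1, 86% passed the adjusted p and 44% were called. That difference lies at the fold threshold, so the 44% does not measure power. Of genes with a true difference of 1.5, 98% were called, and of those with 2, 100%.

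The members and gene lists were chosen with earlier results of these data known. Some list members are not reported here by name. Named genes were list members, the 15 highest and 15 lowest called genes with a mean of at least 100 counts and no overlap between groups, and the 5 highest and 5 lowest of the test between lines with that mean. Gene positions were taken from GENCODE v44 on GRCh38 and promoters from RefSeq. Alternatives covered scaling, DESeq2 1.42.0, filters, libraries in the fit, limma 3.58.1 on the log2 table, thresholds and left-out replicates.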

Additional observations from a re-analysis of the deposited data

Results flagged for a closer look

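The difference between CoCl2 and OD was not the same in both lines for 3422 genes, by the test of the Caco-2 difference minus the HT-29 difference over all 18 mRNA libraries. For the genes described above that it called, the value on the log2 scale is given in parentheses; above 0, CoCl2 minus OD was the larger in Caco-2. The line and its culture state cannot be told apart in these values, and no cause was tested.

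The values below are of genes with enough reads to be tested in each line alone. Hypoxia, glycolysis and vessel genes were mostly below 0, with PFKFB3 (-3.47), NDRG1 (-2.65), PDK1 (-2.31), SLC2A1 (-2.22), LDHA (-1.84), EGLN1 (-1.79), EGLN3 (-1.76), PGK1 (-1.24), ALDOA (-1.17) and ADM (-1.05). BNIP3 (1.47) was above 0, although it was low in HT-29. Among metal, oxidant and heat shock genes, HMOX1 (-2.65), ABCC2 (-2.32), HSPE1 (-1.14), HSPH1 (-1.05) and DNAJB1 (-1.05) were below 0 and MT1E (1.08) above. Of the urokinase and integrin genes, PLAU (3.09) and PLAUR (1.38) were above 0, although PLAU rested on few reads in Caco-2.

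Signalling and inflammatory genes above 0 were CCL20 (2.54), CXCL1 (2.34), IER3 (1.66), ID1 (2.09), DUSP6 (2.04), MYC (1.79) and EGR1 (1.10), and JUN (-1.23), ATF3 (-1.06), SMAD6 (-1.12) and KLF4 (-1.60) were below. Replication and serine genes below 0 were CHAC1 (-1.29), PCNA (-1.20), CDC45 (-1.16) and PSAT1 (-1.13), and the mitosis genes CDC20 (1.52) and CCNB1 (1.08) were above. CDX2, an intestinal factor (1.74), lay above 0. LCT, NFATC1, ITGA5 and ZNF280A had at most 9 counts in each treated HT-29 library, and no difference between lines is given for them. Of the genes with the largest differences in Caco-2, DHRS2 (4.60), H2BC21 (2.77), TLCD2 (1.74), SOWAHA (1.61) and CTBP1-DT (1.30) were above 0 and CFAP44 (-2.69), SMPD1 (-1.36) and MAP1A (-1.23) below.

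Without scaling for composition, 12 of the 45 genes given above were no longer called: ADM, ALDOA, ATF3, CDC45, DNAJB1, HSPE1, HSPH1, JUN, MAP1A, PCNA, PSAT1 and SMAD6, at -0.81 to -0.99. No member of the heat shock list was then called and no replication gene was called below 0. Calls were also lost for CCNB1 in DESeq2 (0.99), for ALDOA, ATF3, DNAJB1, HSPE1 and HSPH1 without replicate 1 of each group, for ADM, CTBP1-DT, EGR1 and SOWAHA without replicate 2, and for CCNB1, CDC45, MT1E and SMAD6 without replicate 3.

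By the rule for named genes, the 5 highest of the test were APOC3, SLC2A14, EREG, CXCL8 and CYP1B1 and the 5 lowest GRID1, TLR6, GALNT16, PRKAA2 and ADGRD1. For all but EREG, no treated library of one of the lines held more than 12 counts, so the fitted value is not a size and is not given. APOC3 had 7354 to 14785 counts in a treated Caco-2 library and 0 to 6 in HT-29, whereas CXCL8 had 0 to 12 in Caco-2 and 358 to 1316 in HT-29. EREG, the growth factor epiregulin, was tested in both lines, and its difference between lines of 5.13 came from 1.32 for Caco-2 and -3.71 for HT-29.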

How the results depend on the processing

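The count of 1868 genes (835 higher, 1033 lower) changed by more than 1.5 times under 5 settings. It was 852 (349 higher, 503 lower) with a mean of at least 50 counts, where fewer genes were tested, 490 (256 and 234) with glmTreat against a log2 fold change of 1, 341 (202 and 139) when limma-trend was run on the authors' log2 table, 848 (378 and 470) when that table was logged again at a pseudocount of 0.1, and 7957 (3917 and 4040) when the fold threshold was dropped. For the limma-trend counts the cause was not tested. Other settings gave 1654 (6 treated libraries only) to 2256 (no filter), with 1748 in DESeq2, 1866 with DESeq2 size factors, 2229 with all 18 libraries and 1739 to 1977 without 1 library. Library size only gave 2126 (602 higher, 1524 lower). In the test between lines, 936 genes below 0 became 543 with library size only, and its 3422 genes became 3330 in DESeq2, 3374 with the replicate block and 2918 to 3146 without a replicate number.

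The labels do not say whether libraries with the same replicate number were paired. Deviations of CoCl2 and OD libraries with the same number correlated at 0.03, 0.07 and -0.06, which with 3 libraries per group cannot show whether a pairing existed. The replicate block gave 1842 genes (825 higher, 1017 lower).

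Of 2917 values of 148 named genes under 21 settings, 2754 kept their direction and side of the threshold, 137 fell below it and 20 rose above it. Direction turned for 2 genes that were not called. SLC11A2 was -0.14 with library size only, -0.0028 without a filter, -0.03 without CoCl2 replicate 2, -0.02 without OD replicate 3 and -0.0059 without replicate 3 of each group, in a range of -0.028 to 0.081 as replicates were left out, and ALDOC was -0.12 with library size only. Of 112 called named genes, 61 were called the same way in all settings run, and 89 in all settings but glmTreat and limma-trend. With library size only, ALDOA, CITED2, DNAJB1, FTH1, HK1, HSP90AA1, HSPA8, KDM5B, KDM7A, NQO1, PLAU and PLAUR fell under the fold threshold. Depth limits genes such as MT1H and UGT2B11, whose OD or CoCl2 libraries hold few reads.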

Other observations

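The groups below were picked after their values were seen, so their counts are descriptions. Clustered histone genes, whose mRNAs normally end without a poly(A) tail, had group medians above control with CoCl2 and below control with OD. Of 26 tested, 22 were higher in CoCl2 than in OD (84.6% against 5.21% of all genes) and none was lower, with a median log2 fold change of 1.54, made up of 0.80 for CoCl2 minus control and -0.82 for OD minus control. Of the 26, 22 lay above control with CoCl2 and below it with OD, 3 lay below control with both, and 1, H2BC9, lay above it with both. The 26 were picked by symbol and include the pseudogenes H2BC19P (1.28, called higher) and H2BC20P (0.82, not called). H1-2, a linker histone, had 2.47 and H2BC9 had 1.84. Among the 12 other histone genes, H2AZ1, a replication-independent variant, had -0.85 and H3-3A -0.02. The libraries were made by poly(A) selection, and the part of tail addition in these values was not tested.

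Subunits of the proteasome, which degrades ubiquitin-tagged protein, lay above 0 in all 34 tested genes. Of these, 11 were called higher in CoCl2 (32.4% against 5.21% of all genes) and 32 passed the adjusted p upward, where 24.4% of all genes did, with a median of 0.84. The median was 0.95 for CoCl2 minus control and 0.15 for OD minus control. PSMD14, the deubiquitinase of the lid, had 1.64, the core subunit PSMA6 1.46 and the base ATPase PSMC4 1.27, whereas PSMD5, an assembly chaperone, had 0.23. In HT-29, where 10.8% of all genes were called higher, 31 of 34 were, with a median of 2.02.

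Processed pseudogenes held more higher than lower calls, 46 and 10 of 284 (16.2% and 3.52%), while long noncoding RNAs held 60 and 112 of 795 (7.55% and 14.1%). Of all genes, 5.21% were called higher and 6.44% lower. These classes leave out 2019 tested genes whose symbol was not matched in GENCODE v44, with 253 called higher and 201 lower. Among the pseudogenes, FTLP3 (1.80), FTLP14 (1.98) and FTH1P16 (2.46) are copies of ferritin genes and may share reads with them.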
